A study of Mus musculus with 11 samples.

Results

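GABA-A receptors are the ligand-gated chloride channels through which GABA, the main inhibitory transmitter of the cortex, produces fast inhibition. Here 7 of their subunit genes, Gabra2, Gabra3, Gabra4, Gabra5, Gabrb1, Gabrb2 and Gabrd, were followed in the cortex of 5xFAD mice with and without Abi3. They were chosen by name, each symbol was matched to 1 Ensembl identifier, and they are 7 of 53700 genes in the count tables and 7 of 17626 genes tested. For 6 of the 7 genes no difference between genotypes beyond the spread between animals was detected. Gabrb1 was 1.17-fold higher in mean level without Abi3, but did not pass the threshold after adjustment for the number of genes. Gabra2 stood out for another reason: it varied 2.65-fold between the lowest and the highest animal, and both genotypes held low and high animals.

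The animals were female 5xFAD mice aged 8 months, either wild type for Abi3 (Abi3+/+, n = 6) or homozygous for a null allele made by targeting the Abi3 locus (Abi3-/-, n = 5). ABI3 is a component of the WAVE actin-regulating complex that is found mainly in microglia within the brain. Both groups carry the 5xFAD transgenes, human genes with familial Alzheimer's disease mutations that the Thy1 promoter drives in neurons, so no animal without amyloid entered the comparison. The labels give the strain as C57BL/6 and name no substrain. By the study's methods the Abi3 allele was made on C57BL/6N, the 5xFAD line came from a mixed B6SJL background, and every animal was heterozygous for a Trem2 variant that the SJL strain contributes. RNA came from the cortex of the right hemisphere and was read by QuantSeq, which sequences the end of each transcript next to its poly(A) tail. Cortex is a mixture of cell types, so fewer cells of a type and less RNA per cell cannot be told apart. Each library is 1 animal.

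Libraries held 3202310 to 5501958 reads in genes, and a floor of 3 counts was worth between 0.545 and 0.937 CPM (reads scaled so that all libraries have a common total), which covers counting error only. Raw counts of Abi3 (ENSMUSG00000018381) were 10 to 38 in Abi3+/+ and 0 to 2 in Abi3-/- animals, so the libraries match their labels in this gene. Reads assigned to no gene, per 100 reads in genes, ranged from 59.3 to 68.8 in Abi3+/+ and from 49.8 to 62.5 in Abi3-/- animals (exact permutation test, two-sided, p = 0.00649). Of all genes tested, 95 passed the threshold, a DESeq2 adjusted p at or below 0.05. Abi3, with a mean normalized count of 10.8, had no adjusted p and is not among them. Neuronal markers were abundant in every library. The summed normalized count of 9 pan-neuronal markers was 20767 to 23281 in Abi3+/+ and 22831 to 25170 in Abi3-/- animals, and none of the 9 was at 0 in every animal. Of the 9, 8 were higher and 1 was lower in Abi3-/- animals. A DESeq2 unadjusted p under 0.05 was reached by 4, all higher, beside 8.58% of all genes.

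A GABA-A receptor is a ring of subunits around a chloride pore, commonly alpha and beta subunits with a gamma or a delta subunit. Alpha and beta subunits form the GABA site, and the alpha subunit beside a gamma subunit shapes the response to benzodiazepines. Receptors with a gamma subunit gather at synapses, whereas those that contain the delta subunit lie outside them and carry tonic inhibition. The genes sit in clusters, and Gabra2, Gabra4 and Gabrb1 share a cluster on chromosome 5 with Gabrg1, a gamma subunit.

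That cluster spans 1.41 Mb in GRCm39. Gabra2 (ENSMUSG00000000560) runs from 71114573 to 71253662 on the minus strand, and 468 kb separate it from Gabra4 (ENSMUSG00000029211), at 71721738 to 71815722 on the same strand. Gabrb1 (ENSMUSG00000029212) lies at 71815456 to 72319431 on the plus strand and overlaps Gabra4 by 267 bases. Because reads were counted by strand, this overlap does not merge the counts of both genes. Of the remaining members, Gabra3 (ENSMUSG00000031343) is on chromosome X at 71476275 to 71700723, Gabra5 (ENSMUSG00000055078) on chromosome 7 at 57055164 to 57240831 and Gabrd (ENSMUSG00000029054) on chromosome 4 at 155469407 to 155482872, all on the minus strand. Gabrb2 (ENSMUSG00000007653) is on chromosome 11 at 42310493 to 42523417 on the plus strand, 53.2 Mb from Abi3 on the same chromosome.

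Sequence around the start of the canonical transcript is given for the 3 members of the chromosome 5 cluster, since neighbours in this cluster differed in how far they varied between animals. Each window holds 250 bases before and 50 bases from the start, written 5′ to 3′ on the gene's own strand, and is read from the GRCm39 reference and not from these mice. Capitals mark matches, on either strand, to a GC box (GGGCGG).
Gabra2, chr5:71253613-71253912, minus strand: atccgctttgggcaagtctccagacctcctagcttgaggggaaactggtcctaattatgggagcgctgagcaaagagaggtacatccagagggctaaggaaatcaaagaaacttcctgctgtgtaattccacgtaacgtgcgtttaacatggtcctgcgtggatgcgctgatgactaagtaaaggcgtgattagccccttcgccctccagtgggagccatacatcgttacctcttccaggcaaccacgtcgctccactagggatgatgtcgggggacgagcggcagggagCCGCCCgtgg
Gabra4, chr5:71815673-71815972, minus strand: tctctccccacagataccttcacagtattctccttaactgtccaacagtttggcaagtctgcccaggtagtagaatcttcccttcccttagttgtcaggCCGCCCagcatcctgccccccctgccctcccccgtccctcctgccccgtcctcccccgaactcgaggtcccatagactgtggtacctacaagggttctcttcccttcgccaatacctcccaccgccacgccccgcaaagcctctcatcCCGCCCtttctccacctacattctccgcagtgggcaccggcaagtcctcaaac
Gabrb1, chr5:71856999-71857298, plus strand: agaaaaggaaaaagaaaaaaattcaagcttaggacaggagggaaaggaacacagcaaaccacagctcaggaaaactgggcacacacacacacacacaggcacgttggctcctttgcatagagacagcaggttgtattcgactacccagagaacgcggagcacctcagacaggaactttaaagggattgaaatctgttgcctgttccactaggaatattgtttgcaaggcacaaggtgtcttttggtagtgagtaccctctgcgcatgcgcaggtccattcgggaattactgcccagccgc

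The Gabra2 window has 1 GC box and 17 CpG dinucleotides, the Gabra4 window has 2 and 12, and the Gabrb1 window has no GC box and 8. The canonical start of Gabrb1 lies inside the span annotated for that gene. Over all 7 members the G and C content of the window ranged from 48.7% in Gabrb1 to 69.7% in Gabrd, against a median of 54.3% over 21770 promoters of protein-coding genes. A GC box was found in 3 of the 7 windows (Gabra2, Gabra4 and Gabrd, the last with 4 matches), and in 42.5% of all promoters. The Gabrd window also held 1 E-box (CACGTG, in 7.81% of all promoters). A CRE (TGACGTCA, in 2.44%) and a TATA box (TATAAA, in 13.2%) were found in none of the 7. A match is a description of letters and not of a binding site.

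To ask whether loss of Abi3 altered the subunits, levels were compared as normalized counts, which are deposited counts divided by a size factor for each library. Among 7 members DESeq2 called 0, where 0.539% of all genes tested were called. Genes without an adjusted p, 1 of the 7 members among them, count as not called. At an unadjusted p under 0.05 there was 1 of 7, Gabrb1, beside 8.58% of all genes. In none of the 7 were the genotypes free of overlap, beside 1.04% of all genes. The edgeR quasi-likelihood test (0.21% of all genes called) and limma (0.119%) also called 0 of the 7, and each had 1 of 7 at an unadjusted p under 0.05. DESeq2 again called 0 of the 7 with TMM factors (0.43% of all genes called), without a low-count filter (0.343%), with a stricter one (0.588%), with independent filtering off (0.323%), with unassigned reads as a covariate (0.017%) and with the replicate number as a block (0.187%). The members' log2 fold changes (Abi3-/- against Abi3+/+) had a median of 0.11, with 5 above and 2 below 0, and the median over all genes tested was -0.0033.

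**Figure D1:**
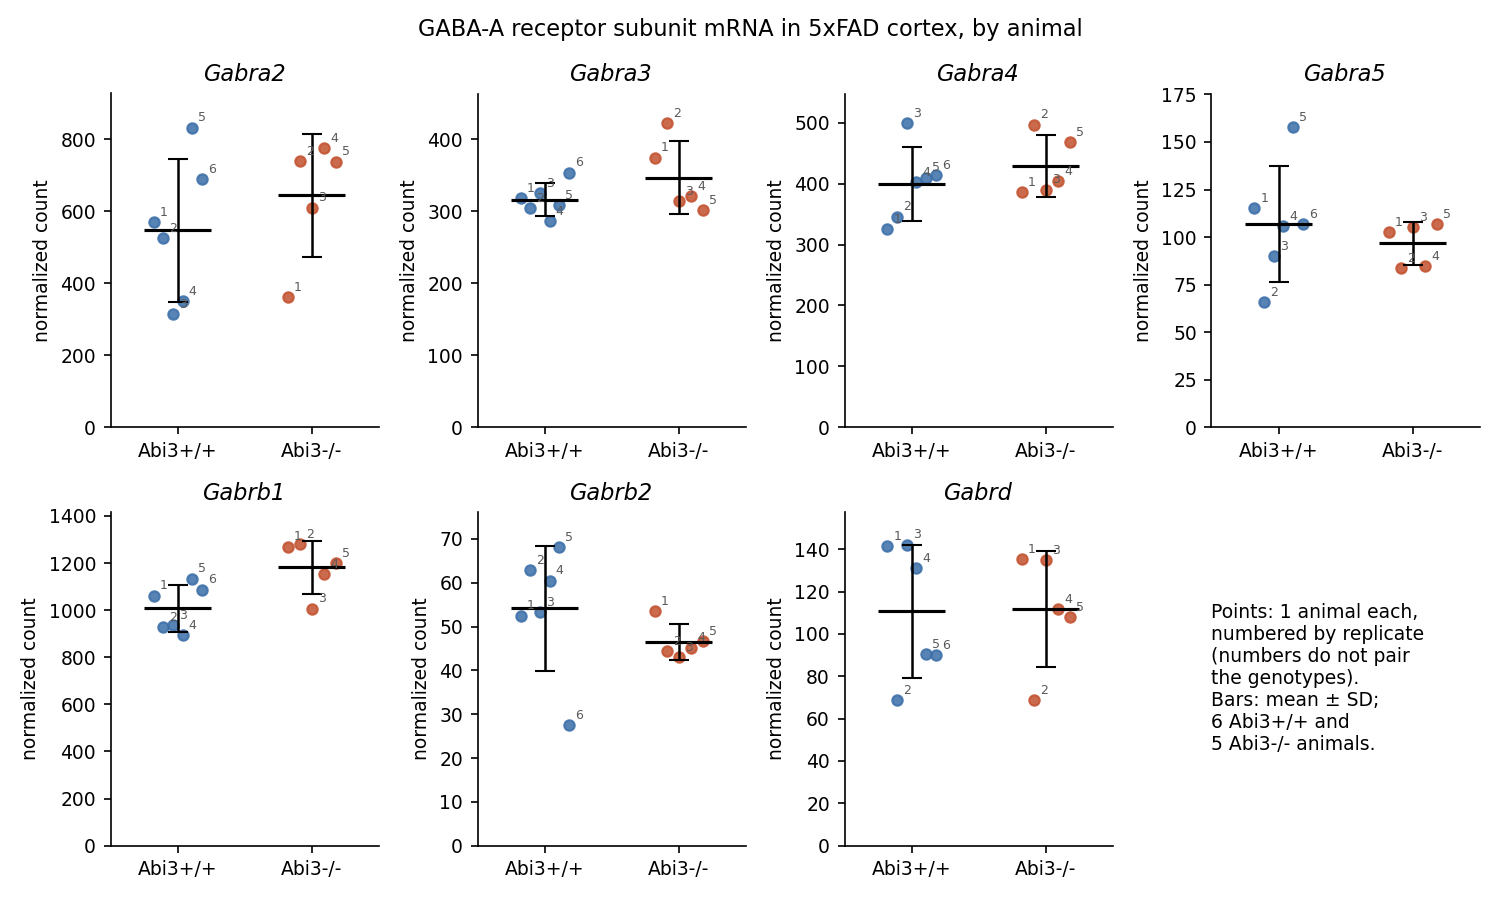
Normalized count of each of the 7 subunit genes (y axis, from 0) by Abi3 genotype (x axis); each point is 1 animal with its replicate number, and bars give the mean and SD of 6 Abi3+/+ and 5 Abi3-/- animals. In the Gabrb1 panel 4 of the 5 Abi3-/- points lie above every Abi3+/+ point, and in the Gabra2 panel animals near 314 to 361 and animals at 525 to 832 occur with a gap between them.

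Among the beta subunits, which help to form the GABA site and on which receptor assembly depends, Gabrb1 encodes beta-1. In Abi3+/+ cortices the Gabrb1 level was lowest at 895, had a median of 998 and was highest at 1134 normalized counts. In Abi3-/- cortices it was 1270, 1279, 1006, 1152 and 1198 in animals 1 to 5. All 5 Abi3-/- values lay above the Abi3+/+ median and 4 lay above every Abi3+/+ value, while animal 3 fell among the Abi3+/+ animals. The mean level was 1007 ± 99.5 (SD, n = 6) in Abi3+/+ and 1181 ± 111 (SD, n = 5) in Abi3-/- cortices. The DESeq2 log2 fold change was 0.23 (SE 0.083, 95% interval 0.07 to 0.39), with an unadjusted p of 0.00529 and an adjusted p of 0.149. With independent filtering off, so that the adjustment covered all 17626 genes tested, the DESeq2 adjusted p was 0.301. For the single gene, an exact permutation test over the 462 splits of the animals gave p = 0.0281 (two-sided), which is not adjusted for the number of genes.

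Whether Gabrb1 passed a threshold depended on which animals entered. Its log2 fold change stayed between 0.20 and 0.28 when each animal was left out. Without Abi3-/- animal 3 the log2 fold change was 0.28 and the DESeq2 adjusted p was 0.0463, past the threshold. The exact permutation p ran from 0.0143 to 0.0619 when each animal was left out in turn, and lay above 0.05 without Abi3+/+ animal 2, 3 or 4 (0.0556 each) or Abi3-/- animal 1 or 2 (0.0619 each). When the reads assigned to no gene were added as a covariate, the Gabrb1 log2 fold change was 0.21 (SE 0.154, DESeq2 unadjusted p = 0.176). Those reads differed between genotypes, so their part and that of genotype cannot be fully told apart in this fit. Their part in the Gabrb1 difference, and that of the pan-neuronal sums above and the striatal markers below, was not tested.

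Gabrb2 encodes beta-2, a common beta subunit of synaptic receptors in the adult brain. The Gabrb2 level was lowest at 27.5, had a median of 56.9 and was highest at 68.1 normalized counts in Abi3+/+ animals. It was 53.5, 44.4, 43.0, 45.2 and 46.7 in Abi3-/- animals 1 to 5. All 5 Abi3-/- values lay below the Abi3+/+ median, and all lay inside the Abi3+/+ range because Abi3+/+ animal 6 was lower than every other animal. Means were 54.1 ± 14.3 (SD, n = 6) and 46.5 ± 4.10 (SD, n = 5), with a log2 fold change of -0.23 (SE 0.240, 95% interval -0.70 to 0.24). The exact permutation p for the single gene was 0.29 with all animals and 0.0238 without Abi3+/+ animal 6, when the difference of the means was -12.9 in place of -7.59 normalized counts. DESeq2 gave no adjusted p because the mean count of 50.7 was under its filter of 70.4. With 26 to 94 raw reads per library, counting alone gives Gabrb2 a coefficient of variation of 14.4%.

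Of the alpha subunits, which set where a receptor goes and how it responds to drugs, Gabra2 encodes alpha-2, found at synapses on the cell body and the axon initial segment. In Abi3+/+ animals the Gabra2 level was lowest at 314, had a median of 547 and was highest at 832 normalized counts. In Abi3-/- animals 1 to 5 it was 361, 739, 610, 775 and 737. Animal 1 was low in the Abi3-/- group, animals 3 and 4 were low in the Abi3+/+ group, and the Abi3-/- values lay within the Abi3+/+ range. Means were 547 ± 198 (SD, n = 6) and 644 ± 171 (SD, n = 5). The log2 fold change was 0.24 (SE 0.296, 95% interval -0.34 to 0.82, DESeq2 adjusted p = 0.81), with an interval that spans 0. Leaving out 1 animal moved it to between 0.12 (without Abi3+/+ animal 3) and 0.40 (without Abi3+/+ animal 5), and unassigned reads as a covariate moved it to 0.60 (SE 0.550).

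Gabra3 encodes alpha-3, which is prominent early in development and in deep cortical layers, and its gene is X-linked. The Gabra3 level in Abi3+/+ animals was lowest at 286, had a median of 313 and was highest at 353 normalized counts. In Abi3-/- animals it was 374, 422, 314, 321 and 302. Animals 1 and 2 of the Abi3-/- group lay above every Abi3+/+ animal, and animals 3, 4 and 5 lay among them. Means were 316 ± 22.8 (SD, n = 6) and 347 ± 50.6 (SD, n = 5), and the log2 fold change was 0.14 (SE 0.107, DESeq2 adjusted p = 0.651).

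Gabra4 encodes alpha-4, a usual partner of the delta subunit outside synapses. The Gabra4 level in Abi3+/+ animals was lowest at 325, had a median of 406 and was highest at 499 normalized counts. In Abi3-/- animals it was 386, 497, 390, 404 and 469. The Abi3-/- values fell inside the Abi3+/+ range. The log2 fold change was 0.11 (SE 0.113, DESeq2 adjusted p = 0.764), and it turned to -0.21 once unassigned reads entered as a covariate.

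Gabra5 encodes alpha-5, known for tonic inhibition in hippocampus and deep cortex. The Gabra5 level in Abi3+/+ animals was lowest at 65.6, had a median of 106 and was highest at 158 normalized counts. In Abi3-/- animals it was 103, 83.8, 105, 84.7 and 107. The Abi3-/- animals lay close together inside the Abi3+/+ range, whose top value came from animal 5. The log2 fold change was -0.15 (SE 0.201, DESeq2 adjusted p = 0.832), and without Abi3+/+ animal 5 it was 0.0076.

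Gabrd encodes delta, the subunit of extrasynaptic receptors that neurosteroids act on. The Gabrd level in Abi3+/+ animals was lowest at 68.9, had a median of 111 and was highest at 142 normalized counts. In Abi3-/- animals it was 135, 68.7, 135, 112 and 108. Both groups covered nearly the same range, and each had an animal 2 near 69 (the labels do not pair the animals). The log2 fold change was 0.02 (SE 0.215, 95% interval -0.40 to 0.44, DESeq2 adjusted p = 0.986). The difference of the mean levels was 1.03 on normalized counts and -0.371 in CPM, so it has no direction that holds across scalings.

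**Figure D2:**
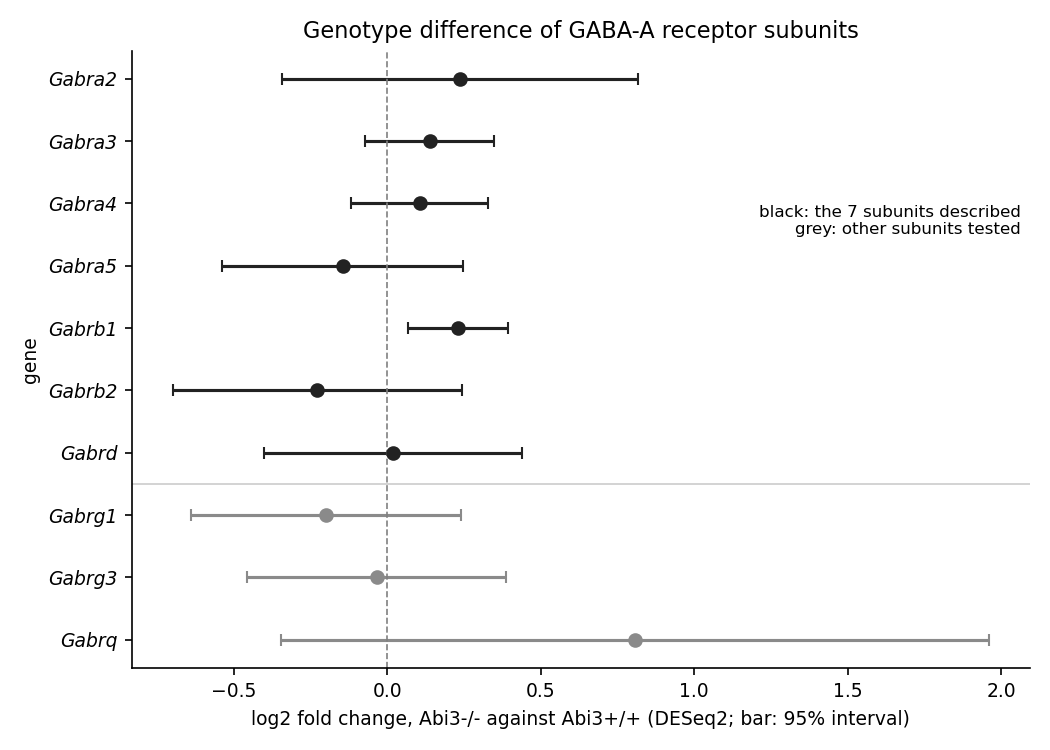
Log2 fold change of each subunit gene (x axis), Abi3-/- (n = 5) against Abi3+/+ (n = 6), as fitted by DESeq2; points are estimates and bars 95% intervals, black for the 7 subunits described and grey for 3 other subunits. The interval of Gabrb1 lies above 0 without passing the adjusted threshold, and the interval of Gabra2 spans -0.34 to 0.82.

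The members differed in how far animals of the same genotype varied. The within-genotype SD of log2(normalized count + 1) was 0.51 for Gabra2, and among 1806 genes whose mean normalized count reached 300, only 6 had a larger one. The median SD of those genes was 0.15. Gabra4 ranked 340, Gabra3 793 and Gabrb1 976 of the same 1806 genes, with SDs of 0.20, 0.16 and 0.14. The coefficient of variation of Gabra2 within genotypes was 31.5%, and counting alone would give 4.26%. For the members with fewer reads the same pairs were 26.7% and 9.63% for Gabrd, 23.5% and 10.01% for Gabra5, and 21.7% and 14.4% for Gabrb2.

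**Figure D3:**
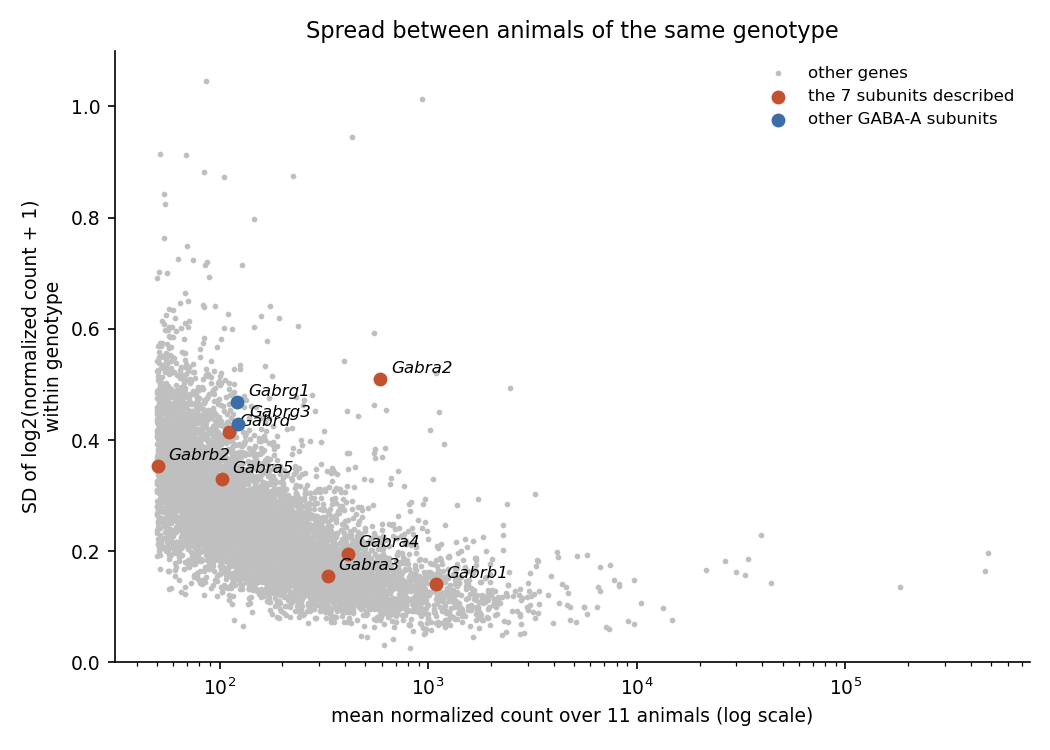
SD of log2(normalized count + 1) within genotype (y axis) against the mean normalized count over 11 animals (x axis, log scale) for 7780 genes whose mean was 50 or more, of which 9 lie above the top of the axis; red points are the 7 subunits described and blue points other GABA-A subunits. Gabra2 stands at 0.51, above most genes of similar mean count, while Gabra3, Gabra4 and Gabrb1 stand at 0.14 to 0.20.

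Gabra2 values fell apart into 3 animals at 314 to 361 and 8 animals at 525 to 832, a step of 1.46-fold between the nearest values of both sets. The low animals were Abi3+/+ animals 3 and 4 and Abi3-/- animal 1, so they occurred in both genotypes. Raw Gabra2 counts ran from 300 to 1149, well above the 3-count floor in every library. In mice, brain Gabra2 mRNA is known to differ between C57BL/6 substrains, and the animals' genotype at Gabra2 was not analysed here.

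The neighbours on chromosome 5 were low in some of these animals and not in others. Relative to each gene's mean over 11 animals, Gabra2 ranged from 0.531 to 1.41, Gabra4 from 0.788 to 1.21 and Gabrb1 from 0.824 to 1.18. In Abi3+/+ animal 3, where Gabra2 was at 0.531 of its mean, Gabra4 was at 1.21 and Gabrb1 at 0.861. In Abi3+/+ animal 4, where Gabra2 was at 0.591, Gabra4 was at 0.976 and Gabrb1 at 0.824, its lowest value. In Abi3-/- animal 1, where Gabra2 was at 0.61, Gabra4 was at 0.934 and Gabrb1 at 1.17. Gabrg1, the outer gene of the cluster and the one with fewest reads, ranged from 0.524 to 1.33 of its mean. Its 2 lowest values were in Abi3+/+ animal 4 (0.524) and Abi3-/- animal 1 (0.663), where Gabra2 was low too, and its highest was in Abi3+/+ animal 3 (1.33).

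**Figure D4:**
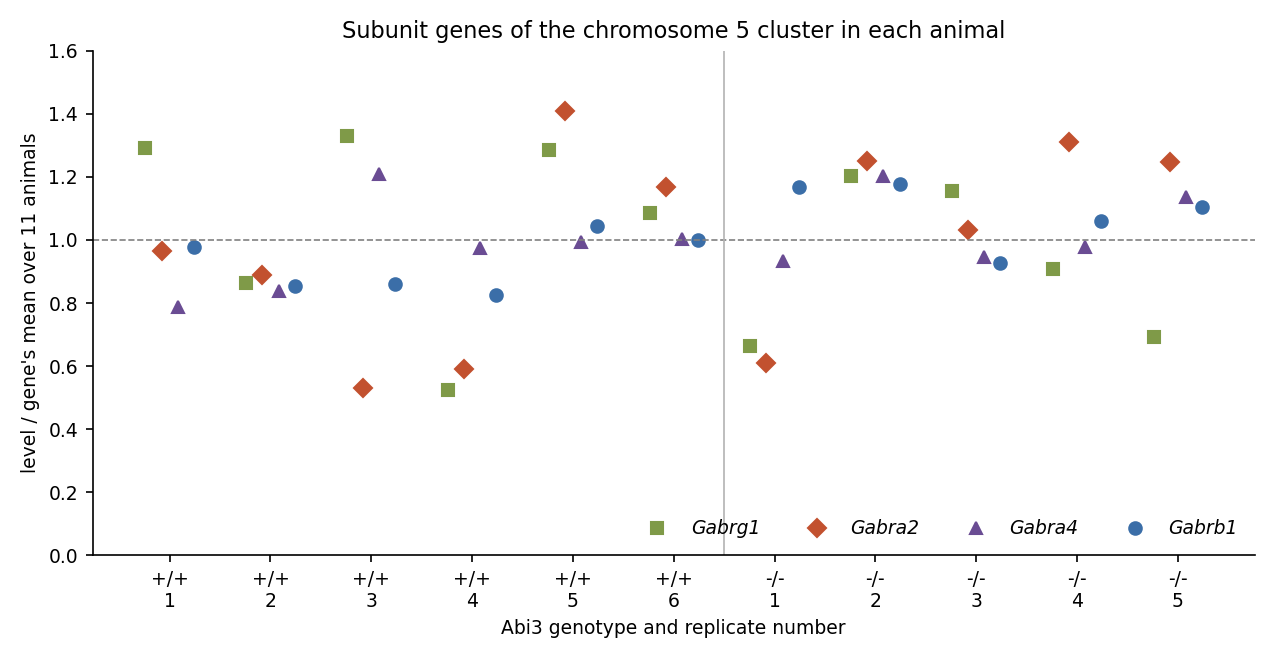
Level of Gabrg1, Gabra2, Gabra4 and Gabrb1 in each of 11 animals (x axis, Abi3 genotype and replicate number), divided by the gene's mean over all animals (y axis, no unit, dashed line at 1). Gabra2 (diamonds) falls to 0.531 to 0.61 in 3 animals where Gabra4 (triangles) stays between 0.934 and 1.21.

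With the genotype means taken off, the 21 pairs of members had Pearson correlations over 11 animals from -0.57 (Gabra2 and Gabrd) to 0.58 (Gabra3 and Gabrb1). Their median was -0.0075, with 10 above and 11 below 0. Gabra2 had an r of 0.45 with Gabrb1, -0.06 with Gabra4 and 0.43 with Gabrg1. Both genes of a pair are read from the same libraries and share their size factors, and these values are given as descriptions with no test.

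The same measure was taken against summed markers of 12 cell types or regions, 84 values in all, of which 8 had a size of at least 0.6. Gabrd had an r of 0.73 with the sum of 7 striatal markers, which was 2018 to 3222 normalized counts in Abi3+/+ and 1725 to 2805 in Abi3-/- animals. Gabra2 had an r of -0.66 and Gabrb1 an r of -0.64 with the same sum. All 7 striatal markers had a log2 fold change below 0 (median -0.26), with 0 at a DESeq2 unadjusted p under 0.05. Against 4 endothelial markers, at 505 to 784 in Abi3+/+ and 622 to 732 in Abi3-/- animals, r was 0.76 for Gabra2 and 0.79 for Gabrb1. Gabrb1 had an r of 0.70 with 4 thalamic markers, at 201 to 325 in Abi3+/+ and 299.6 to 329 in Abi3-/- animals. Gabra4 had an r of 0.71 with the pan-neuronal sum and of -0.68 with 4 cerebellar markers, at 78.4 to 197 in Abi3+/+ and 94.9 to 162 in Abi3-/- animals. No marker of these lists was at 0 in every animal, and the part of the tissue mixture in the members' spread was not tested.

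Genes most like the 7 members were sought among 7773 other genes whose mean reached 50 normalized counts, by the Pearson correlation over 11 animals with the members' mean z-score, genotype means removed. They were Sptbn1 (r = 0.93), Cd200 (0.91), Pygo1 (0.90), Galnt16 (0.89) and Entpd6 (0.89). Taken member by member, r was above 0 with all 7 for Sptbn1 and Entpd6, with 6 for Pygo1 and with 5 for Cd200 and Galnt16. Sptbn1 encodes a beta spectrin of the membrane skeleton and Cd200 a neuronal surface protein that restrains microglia. The log2 fold change between genotypes was 0.0037 for Sptbn1 (DESeq2 adjusted p = 0.992) and 0.16 for Cd200 (adjusted p = 0.713). They are the top of a long search over few animals. The search was against the mean of members whose pairs had a median r of -0.0075.

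Of 9 other GABA-A and GABA-rho subunit genes followed here, 3 were tested, and DESeq2, edgeR and limma called 0. None had a DESeq2 unadjusted p under 0.05. Gabrg1, the gamma subunit of the chromosome 5 cluster, had 130 ± 38.7 (SD, n = 6) normalized counts in Abi3+/+ and 113 ± 30.7 (SD, n = 5) in Abi3-/- cortices (log2 fold change -0.20, DESeq2 adjusted p = 0.782). Gabrg3, another gamma subunit, had 125 ± 32.5 (SD, n = 6) and 122 ± 40.7 (SD, n = 5), with a log2 fold change of -0.03 (DESeq2 adjusted p = 0.972). Gabrq, the theta subunit, had a log2 fold change of 0.81 with an SE of 0.589 at a mean normalized count of 10.2, too low for an adjusted p.

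The rest of the pathway was followed through lists of genes. Over the other subunits and 5 further lists, 46 of 52 genes were tested and 0 passed the threshold in DESeq2, edgeR or limma, with 4 at an unadjusted p under 0.05 in DESeq2, 3 higher and 1 lower in Abi3-/- animals. All genes tested had 8.58% at that level, which for 4 of 46 is near the background. The median log2 fold change over these 46 genes was -0.02, with 22 above and 24 below 0.

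GABA handling covers synthesis, vesicle loading, uptake and breakdown. Of its 8 genes 6 had a log2 fold change below 0 and 2 above, with a median of -0.14. Gad1 and Gad2, the enzymes that make GABA, had log2 fold changes of -0.09 (DESeq2 adjusted p = 0.766) and -0.18 (adjusted p = 0.572). Abat, the GABA transaminase, had 403 ± 34.7 (SD, n = 6) normalized counts in Abi3+/+ and 350 ± 30.1 (SD, n = 5) in Abi3-/- cortices (log2 fold change -0.20, DESeq2 adjusted p = 0.366). Slc6a11, an astrocyte GABA transporter, had the lowest value of the list, -0.37 (DESeq2 adjusted p = 0.551). Markers of interneurons, the cortical cells that release GABA, were summed over 10 genes. The sum was 2970 to 3552 normalized counts in Abi3+/+ and 3018 to 3884 in Abi3-/- animals. Cck alone averaged 1974 of it, so the sum follows mainly Cck. Of the 10 markers 6 had a log2 fold change above 0 and 4 below. The one with an unadjusted p under 0.05 in DESeq2, Calb2 (calretinin), is named after its values were seen: it had 42.9 to 97.3 normalized counts in Abi3+/+ and 35.7 to 50.5 in Abi3-/- animals, a log2 fold change of -0.67 and no adjusted p.

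Of 21 genes of the inhibitory synapse and of receptor traffic, 3 had an unadjusted p under 0.05, all higher in Abi3-/- animals (8.58% over all genes), and the list's median log2 fold change was -0.02. Nsf, an ATPase of membrane fusion that binds beta subunits, averaged 1239 ± 145 (SD, n = 6) normalized counts in Abi3+/+ and 1487 ± 173 (SD, n = 5) in Abi3-/- cortices (log2 fold change 0.26, DESeq2 adjusted p = 0.118). Without Abi3+/+ animal 4 the value for Nsf was 0.31 and the DESeq2 adjusted p was 0.0231. Gabarapl1, of the GABA receptor-associated protein family, had a log2 fold change of 0.24 (adjusted p = 0.212).

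GABA-B receptors, which signal through G proteins, gave log2 fold changes above 0 in all 5 genes tested and below 0 in none, with a median of 0.10 and none at an unadjusted p under 0.05. Gabbr1 had 0.10 (DESeq2 adjusted p = 0.528), Gabbr2 0.07 (adjusted p = 0.809) and the auxiliary subunit Kctd12 0.21 (adjusted p = 0.583). Among 4 genes of chloride transport, which sets whether GABA inhibits, Slc12a5 (the exporter KCC2) had 0.04 (adjusted p = 0.901), Slc12a2 (the importer NKCC1) 0.21 (adjusted p = 0.503) and the kinase Wnk1 -0.13 (adjusted p = 0.583). Among 5 genes of modulators of the receptor, Dbi, which encodes an endogenous benzodiazepine-site ligand, had 0.06 (adjusted p = 0.861), and Tspo (0.63) and Srd5a1 (-0.68) had counts too low for an adjusted p.

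**Figure D5:**
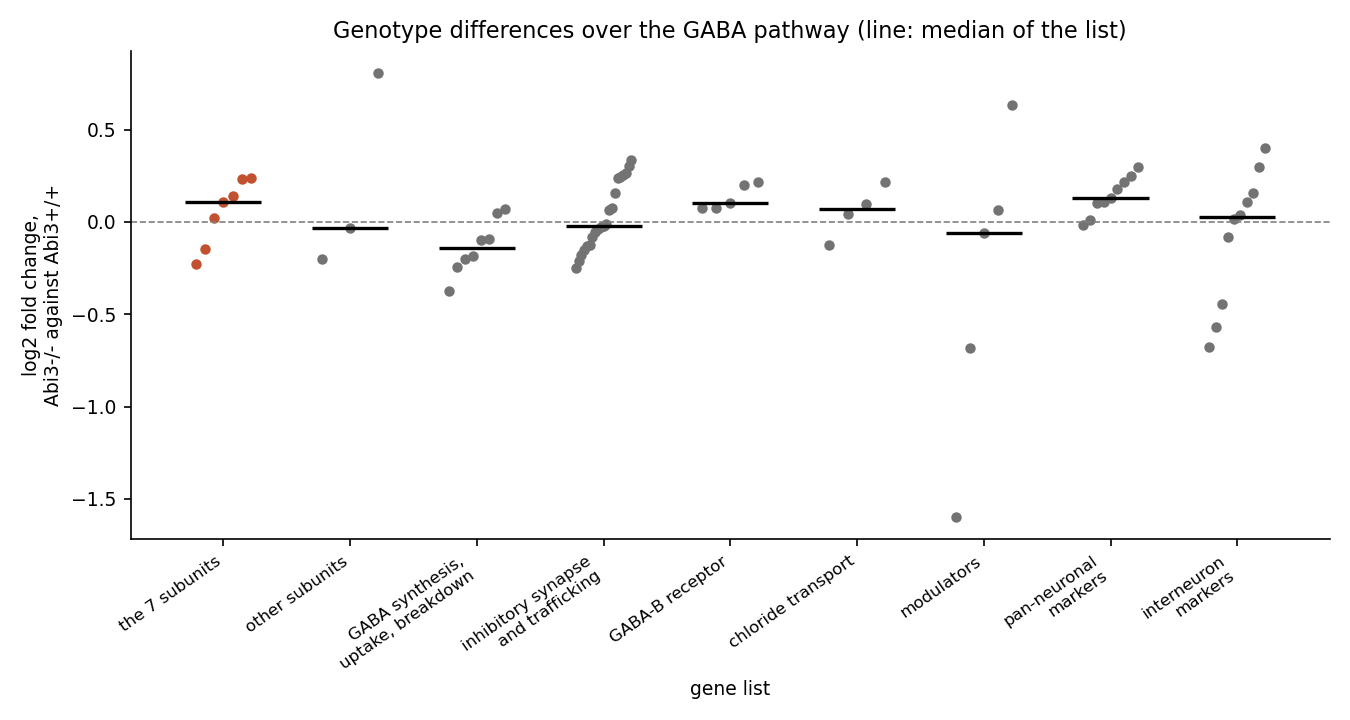
Log2 fold change between genotypes (y axis) of each tested gene in the 7 subunits, in 6 lists of the GABA pathway and in 2 marker lists (x axis); each point is a gene and each line the list's median. Medians lie between -0.14 for GABA handling and 0.13 for pan-neuronal markers, and no gene shown passed the adjusted threshold.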

How the data were processed

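The deposited tables hold raw counts per Ensembl gene for 11 animals. According to the study's methods the authors trimmed adapters and poly(A) or poly(T) stretches, aligned reads with STAR (2.7.3a) to GRCm39 and counted uniquely aligned reads by strand with htseq-count (HTSeq 0.9.1). PCR copies were not stated to be collapsed, so counts are of reads. Gene names and positions came from GENCODE vM39 of the same build (52610 of 53700 identifiers matched).

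Genotypes were compared with DESeq2 (1.42.0, R 4.3.3), with genotype as the only term. Genes with at least 10 counts in total were fitted (19035) and those whose mean normalized count reached 1.5 were tested (17626), at a Benjamini-Hochberg adjusted p of 0.05. Independent filtering at this threshold left genes with a mean under 70.4 out of the adjustment. Alternatives were edgeR (4.0.16), limma (3.58.1) with voom, TMM factors, other filters, a covariate, a replicate block and leaving out each animal. The fits were tested on simulated data. For single genes an exact permutation test (two-sided, 462 splits) was added, whose smallest possible p is 0.00216. Intervals cover 95%.

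Named genes were Abi3, the 7 members, other subunits with a mean of at least 10, the 2 genes with the highest mean and the 2 with the smallest unadjusted p of each pathway list, and the 5 genes most like the members. Cck, Calb2 and the subunit genes with few or no counts were named outside this rule. Members and lists were chosen with earlier results of these data known, and some genes of the pathway are not reported here. The animals are separate. The numbers in their titles, shared by both groups for 1 to 5, are not labelled as a litter or batch. Whether same-numbered animals shared one is not known. The same-numbered libraries deviated from their group means with correlations of -0.02 to 0.12 and were not treated as pairs.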

Additional observations from a re-analysis of the deposited data

Results flagged for a closer look

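In 2 cases 1 animal stood far from the rest of its group, by Dixon's criterion at the 95% level, among 62 groups of values examined. Chance flags about 1 in 20 groups, here 3.1. Neither is in the 7 subunits described. In Abi3-/- animal 5 the Gad2 level was 286.8 normalized counts, against 414 in the nearest animal of the group. In Abi3-/- animal 2 the Abi3 level was 2.02 normalized counts, from 2 reads, where the other Abi3-/- animals had none.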

How the results depend on the processing

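The number of members past the threshold was 0 in all 8 alternatives and 0 to 1 when each animal was left out (Gabrb1, without Abi3-/- animal 3), and the same range held for the pathway genes (Nsf, without Abi3+/+ animal 4). Of all genes, 95 passed in DESeq2, 37 in edgeR, 21 in limma, 57 with independent filtering off and 3 with reads outside genes as a covariate, of which 23, 19, 46 and 3 were among the 95. Leaving out 1 animal gave 46 to 120. With the replicate block, which was fitted without Abi3+/+ animal 6, 33 genes passed (28 of the 95) and no member did. Gabrd was at -0.0257 in that fit, and at -0.0323 when the same animal was left out with no block. The labels do not pair the same-numbered animals, so this result is a check only. The covariate turned Gabra4 to -0.21 and gave 0.60 for Gabra2, 0.0033 for Gabra3 and -0.41 for Gabrb2, and CPM turned the Gabrd difference to -0.371. The covariate itself differed between genotypes, so its part and that of genotype cannot be fully told apart in that fit. With it the SE rose for every member, from 0.113 to 0.193 for Gabra4 and from 0.083 to 0.154 for Gabrb1. The cause of these changes was not tested.

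When each animal was left out, log2 fold changes ran from -0.0899 to 0.15 for Gabrd and from -0.26 to 0.00758 for Gabra5. They ran from 0.20 to 0.28 for Gabrb1, and those of the other 4 members kept their sign. Among the latter, Gabra3 ran from 0.057 to 0.19 and Gabra4 from 0.047 to 0.18, both lowest without Abi3-/- animal 2. Differences of mean normalized counts ran from -7.34 to 11.8 for Gabrd, from -18.5 to 0.00338 for Gabra5, from 150 to 218 for Gabrb1 and from -12.9 to -4.80 for Gabrb2. Precision is limited by 26 to 94 reads per animal for Gabrb2 and 68 to 154 for Gabrd.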

Other observations

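The subunit genes outside the main cortical set were near or under the counting floor. Gabrp and Gabrr3 had no count in any animal, which allows up to 3 counts, or 0.545 to 0.937 CPM, per library. Gabra6, Gabrr1, Gabrr2 and Gabre had too few counts to be tested. Gabre, the epsilon subunit, had 1.45 ± 2.54 (SD, n = 6) normalized counts in Abi3+/+ and 0.885 ± 1.48 (SD, n = 5) in Abi3-/- cortices. Gabra6 marks cerebellar granule cells, and the rho subunits are best known from retina.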
